A study of Saccharomyces cerevisiae with 16 samples.

Results

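Divergent gene pairs of the budding yeast genome were examined for the histone mark H3K4me3, in which lysine 4 of histone H3 carries 3 methyl groups. A divergent pair was taken as adjacent protein-coding genes of which the left one runs leftwards and the right one runs rightwards, with starts at most 1000 bp apart and with pairs within 30 kb of a chromosome end or 20 kb of a centromere left out. This gave 1145 pairs and 2290 starts among 6002 genes. A peak was a member if its summit, the position with the most fragments, lay from 200 bp upstream to 800 bp downstream of such a start, which is the window used throughout. Of the 30753 peaks in the 8 lists, 9405 were members, or 30.5% ± 1.13 of each list (SD, n = 8). The start of a gene was the first base of its annotated coding sequence, so the transcript starts themselves lie some way upstream. Of the divergent genes, 30.6% were shorter than 800 bp, so a summit in the window can lie past the end of its gene.

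The libraries came from the haploid strain BY4741 carrying a human locus. All carried either synHPRT1R, in which the bases of the HPRT1 region run backwards without being complemented, or synHPRT1, the same region in its native order. Each locus was present either as a yeast artificial chromosome (YAC), grown in synthetic medium without leucine, or integrated on chromosome XI at YKL162C-A and grown in rich YPD medium, so that context and medium cannot be told apart. H3K4me3 was mapped by CUT&RUN, in which nuclease bound through an antibody cuts out the marked chromatin for sequencing, in 2 replicates of each of the 4 groups: synHPRT1R YAC, synHPRT1R integrated, synHPRT1 YAC and synHPRT1 integrated. The replicates are separate colonies of 1 strain per group, so the tests measure the spread between libraries and not between strains. The 8 IgG libraries were not analysed here. Each list held 3463 to 4049 peaks over a genome background of 76.2 to 98.9 fragments, with the fewest peaks and the highest background in synHPRT1R YAC replicate 1.

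In yeast, H3K4me3 is written by Set1 within the COMPASS complex, which travels with RNA polymerase II as it begins transcription, and the mark is densest on the first nucleosomes of transcribed genes. Genes of a divergent pair face away from a common spacer, which usually holds the regulatory sites and a stretch with few nucleosomes. The marked nucleosomes of the pair therefore lie on either side of that spacer, and an unmarked gene can sit next to a marked one.

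The spacers of 5 pairs that carry the main patterns are shown, from the RefSeq sequence of build R64 (sacCer3), plus strand, 5′ to 3′. All run from the base after the left start to the base before the right start, except the last 2, which are the 300 bases before SPO13 and the stretch of the GAL10/GAL1 spacer that holds the sites of the activator Gal4. Capitals mark, on either strand, the TATA box TATAAA, the Gcn4 motif TGACTC, the URS1 core GCCGCC and the outer bases of the Gal4 motif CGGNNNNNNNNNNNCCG. The motifs CGGGTAA (Reb1), GATGAG (PAC) and ACACCC (Rap1-like) were also searched and had no match in these stretches. The PIB2/STT3 spacer (chrVII:452105-452403) lay under the strongest single peak over both genes. The MRM1/HIS3 spacer (chrXV:721709-721945) is a textbook shared promoter. The SPS4/YOR314W spacer (chrXV:902875-903042) had no peak at either gene, the stretch before SPO13 (chrVIII:131747-132046) adjoined a gene without a peak in a pair with a marked partner, and the GAL10/GAL1 stretch (chrII:278558-278631) lay between unmarked genes. In the last stretch 1 match to GCCGCC overlaps the first Gal4 match.
PIB2/STT3: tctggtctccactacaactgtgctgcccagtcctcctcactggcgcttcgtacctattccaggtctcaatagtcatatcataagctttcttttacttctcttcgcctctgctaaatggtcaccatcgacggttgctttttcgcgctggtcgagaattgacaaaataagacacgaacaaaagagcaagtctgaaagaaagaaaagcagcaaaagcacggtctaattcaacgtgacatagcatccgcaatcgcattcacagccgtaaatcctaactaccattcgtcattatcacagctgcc
MRM1/HIS3: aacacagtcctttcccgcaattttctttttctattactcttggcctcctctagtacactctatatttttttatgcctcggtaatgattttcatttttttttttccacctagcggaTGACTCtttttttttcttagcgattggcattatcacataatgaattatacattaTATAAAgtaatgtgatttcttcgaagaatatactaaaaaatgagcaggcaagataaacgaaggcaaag
SPS4/YOR314W: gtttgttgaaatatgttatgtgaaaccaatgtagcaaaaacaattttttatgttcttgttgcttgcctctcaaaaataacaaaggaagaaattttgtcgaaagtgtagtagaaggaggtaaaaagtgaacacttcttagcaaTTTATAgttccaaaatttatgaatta
ARD1/SPO13: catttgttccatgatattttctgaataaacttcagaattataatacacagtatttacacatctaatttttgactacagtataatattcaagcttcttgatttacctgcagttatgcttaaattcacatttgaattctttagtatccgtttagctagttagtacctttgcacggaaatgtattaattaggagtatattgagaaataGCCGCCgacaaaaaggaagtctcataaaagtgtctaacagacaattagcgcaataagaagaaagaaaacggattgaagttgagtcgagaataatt
GAL10/GAL1: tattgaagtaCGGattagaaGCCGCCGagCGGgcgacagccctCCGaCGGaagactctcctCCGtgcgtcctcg

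Most divergent pairs carried a summit on one side only. On average over the 8 libraries, 68.3% ± 2.85 of the pairs had a summit in the window of just one gene, 15.6% ± 5.46 had separate summits at both genes, 2.02% ± 0.561 had a single summit that lay in both windows, and 14.1% ± 2.42 had none (SD, n = 8). At least 1 summit was thus present at 85.9% of the pairs. The marked side showed no preference between the left and right gene, with 384 left-only and 398 right-only pairs per library.

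Divergent starts carried a summit less often than tandem starts. Tandem genes, 2253 in all, follow a neighbour on the same strand, with a median spacer of 368 bp, and the median distance between divergent starts was 435 bp. A summit was found at 51.7% ± 3.66 of divergent starts and at 64.5% ± 2.59 of tandem starts, a difference of -12.7 ± 2.70 percentage points. The libraries ranged from 46.8% to 56.7% at divergent starts and from 59.0% to 67.4% at tandem starts, and the ranges did not overlap. The difference was negative in 8 of 8 libraries (exact two-sided sign-flip test, p = 0.00781, the smallest that 8 libraries can give; Benjamini-Hochberg adjusted over 12 tests, 0.0117). It was smaller among strong peaks, at -4.11 points for peaks with a −log10 q of 10 or more (6 of 8 libraries lower, exact test, adjusted p = 0.0469) and -6.03 points among the 3000 strongest peaks of each library (8 of 8 lower). The 7 further comparisons of divergent with tandem genes, or within divergent pairs, named as tested here gave the same exact p and adjusted p.

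Both genes of a divergent pair had a summit in 17.6% ± 5.00 of pairs, against 38.4% ± 3.44 for a tandem gene and its upstream neighbour. The difference was -20.8 ± 2.83 percentage points (8 of 8 libraries lower, exact p = 0.00781). A divergent gene had a summit in 33.5% ± 7.39 of cases when its partner had one, and in 71.0% ± 2.78 when its partner had none, a difference of -37.5 ± 5.12 points. In tandem neighbours the same shares were 62.3% ± 2.87 and 60.5% ± 2.93, and the difference between the classes was -39.3 ± 4.63 points. The upstream neighbour of a tandem gene can itself belong to a divergent pair, and such cases were not left out. The divergent difference was -20.2 points with summits from the start to 500 bp downstream, -19.4 in pairs more than 400 bp apart and -56.8 in pairs at most 500 bp apart. The starts of tandem neighbours lay a median of 1650 bp apart, further than any divergent starts, and the part of this distance in the difference was not tested. Each peak has 1 summit, so a peak over both starts counts for both genes only if that summit lies in both windows. Such peaks covered 59.0% ± 7.09 of divergent pairs, so these differences are in part fixed by the count. Counted by peak extent over the first 300 bp, the both-genes difference was 14.9 points and the partner difference 24.3.

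**Figure D1:**
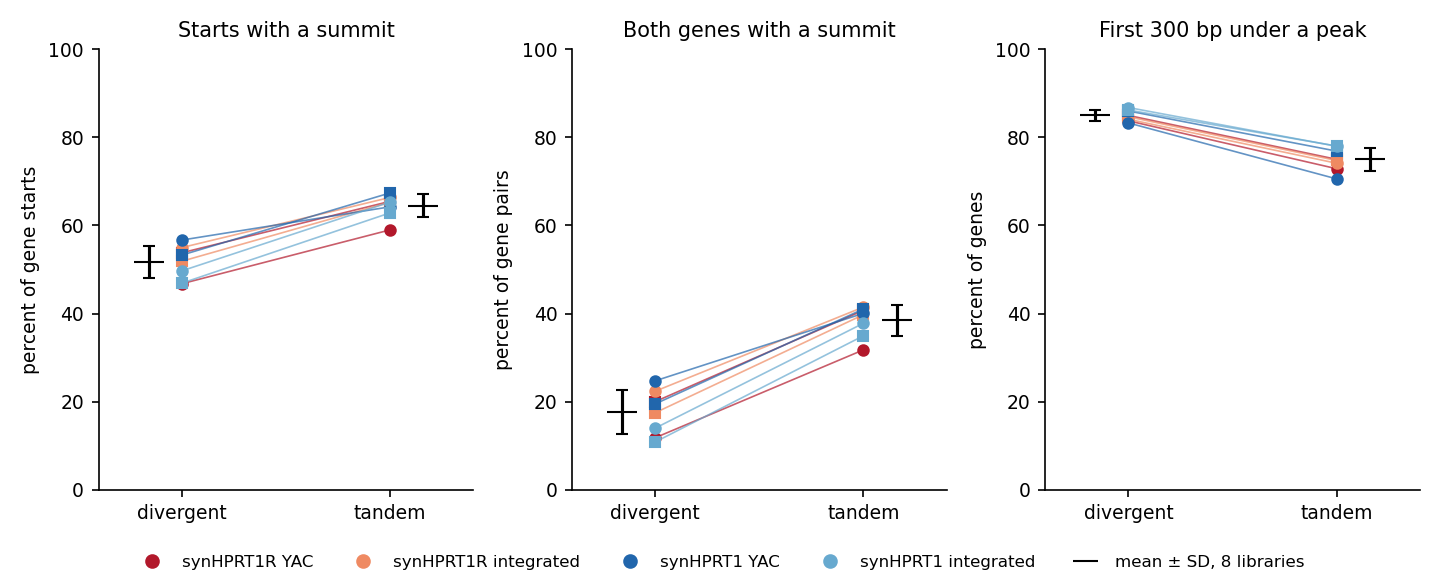
Percent of gene starts with a summit (left), of gene pairs with a summit at both genes (middle) and of genes with a peak over the first 300 bp (right), in divergent and tandem genes. Each line joins the values of 1 library (circles, replicate 1, and squares, replicate 2, coloured by group), and black marks give the mean ± SD of 8 libraries. Divergent genes lie below tandem genes in the first 2 panels and above them in the last.

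The direction turned round when a gene was counted by the extent of a peak instead of its summit. The first 300 bp of the coding sequence lay under a peak at 85.0% ± 1.25 of divergent genes and 75.0% ± 2.58 of tandem genes, a difference of 9.94 ± 1.40 points (higher in 8 of 8 libraries, exact p = 0.00781, adjusted 0.0156). Counted this way, both genes of a pair were under a peak in 75.3% ± 1.97 of divergent pairs, one gene in 19.3% ± 1.70 and neither in 5.38% ± 0.836. The partner relation also turned positive, at 24.3 ± 4.31 points. A single peak over both starts always touches the first 300 bp of both genes. The values by extent are therefore also in part fixed by the count. Of the pairs with a summit on one side, 70.4% ± 4.99 had that same peak reaching past the start of the other gene.

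The peak lists hold 1 summit per peak, and a single peak covered both starts in 59.0% ± 7.09 of the pairs. By distance between the starts, this share was 73.0% ± 5.03 in 99 pairs up to 200 bp apart, 79.7% ± 7.13 in 440 pairs above 200 and up to 400 bp, 59.1% ± 7.59 in 246 pairs up to 600 bp and 29.8% ± 7.82 in 360 pairs up to 1000 bp. Separate summits were found in 8.33% ± 3.04, 9.12% ± 5.32, 15.3% ± 5.92 and 25.6% ± 6.57 of the pairs in the same classes, from the closest to the widest. A spacer between tandem genes was covered from end to end by 1 peak in 17.4% ± 3.80 of cases. Of all spacer bases, 68.0% ± 5.69 lay under peaks in divergent pairs and 33.9% ± 5.22 in tandem genes. A divergent spacer has a gene start at both ends and a tandem spacer at 1 end only, so these shares compare unlike spacers.

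**Figure D2:**
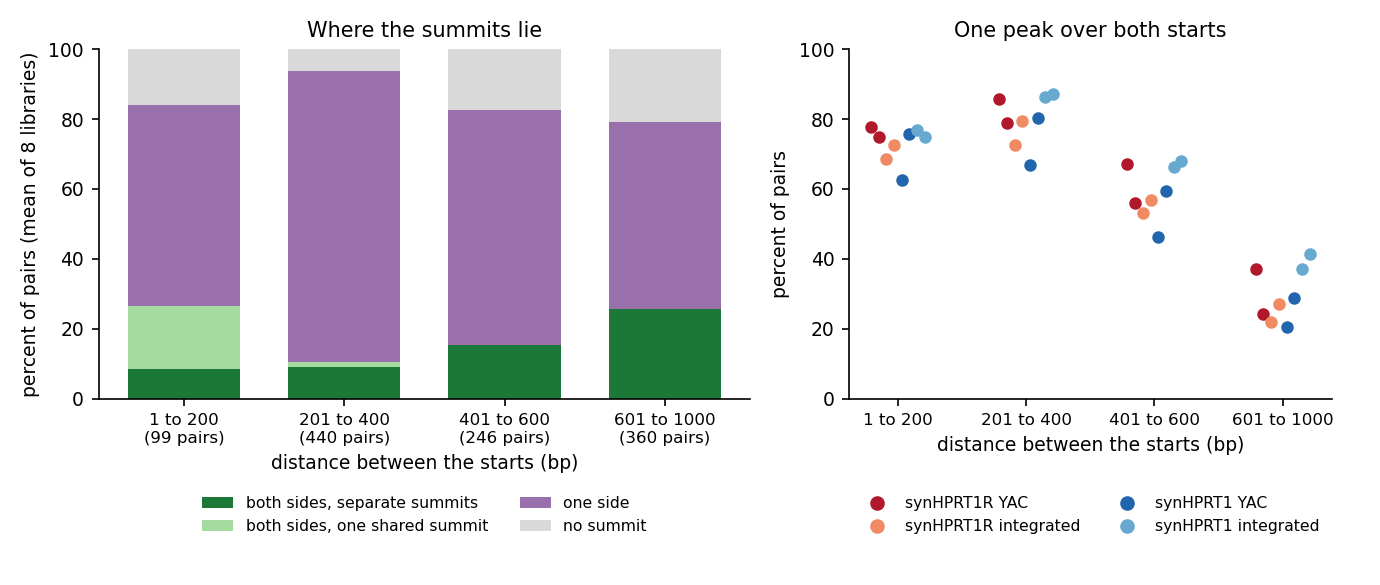
Left, percent of divergent pairs by where their summits lay, in 4 classes of distance between the starts (bp), as means of 8 libraries. Right, percent of pairs with 1 peak over both starts, each point being 1 library coloured by group, which falls to 29.8% on average in the widest class.

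Peaks at divergent starts were wider and higher than those at tandem starts. Their median width was 894 bp ± 128, against 513 bp ± 19.9 at tandem starts, a log2 ratio of 0.79 ± 0.16. The median fold enrichment over local background, as the peak caller gives it, was 2.38 ± 0.204 against 2.06 ± 0.142 (log2 ratio 0.21 ± 0.03). The height of the summit in fragments, relative to the genome background, was 2.60 ± 0.300 against 2.24 ± 0.212 (log2 ratio 0.21 ± 0.04). All 3 were higher in 8 of 8 libraries (exact p = 0.00781 each). These medians include peaks over both starts, which have 1 summit for both genes. Summits lay a median of 76.1 bp ± 25.0 into divergent genes and 99.6 bp ± 29.9 into tandem genes, 23.4 bp ± 7.22 closer to the start, which no longer passed the test in pairs with starts more than 400 bp apart (difference -5.88 bp, adjusted p = 0.199, exact test).

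The wide and high peaks were those that spanned both genes. These made up 50.9% ± 9.31 of the divergent peaks and had a median width of 1242 bp ± 38.6, a fold enrichment of 2.72 ± 0.253 and a relative height of 2.97 ± 0.350. The other divergent peaks had a median width of 530 bp ± 24.1, a fold enrichment of 2.06 ± 0.155 and a relative height of 2.23 ± 0.225, values within 1 SD of those at tandem starts (513 bp, 2.06 and 2.24). Peaks of at least 1000 bp made up 43.2% ± 7.50 of divergent peaks and 13.9% ± 2.30 of tandem peaks. A peak over both starts has to be at least as wide as their distance, so its width is in part fixed by how it was defined. Its 1 summit is the highest point over both genes, so its height and fold enrichment can be raised in the same way. The size of this part was not tested.

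The share of pairs marked on both sides moved with the width of peaks from library to library. It was highest in synHPRT1 YAC replicate 1, at 24.7%, where the median divergent peak was 700 bp wide, and lowest in synHPRT1 integrated replicate 2, at 10.8%, where that width was 1089 bp. The part of peak calling in this spread was not tested.

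**Figure D3:**
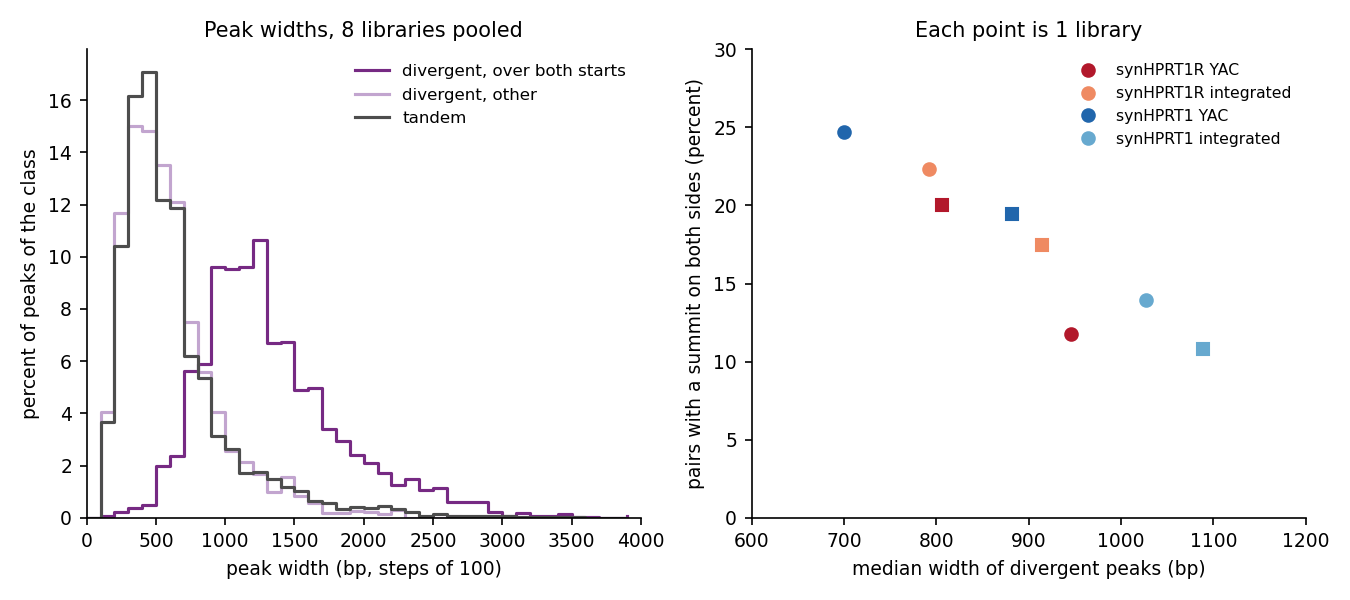
Left, widths of peaks (bp) in steps of 100 bp as percent of each class, with the 8 libraries pooled: divergent peaks over both starts, other divergent peaks and tandem peaks. Right, percent of pairs with a summit on both sides against the median width of divergent peaks, 1 point per library (circles, replicate 1, and squares, replicate 2), between 700 bp with 24.7% and 1089 bp with 10.8%.

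Across the 8 libraries, 276 pairs had a summit on one and the same side in 8 of 8 libraries and on the other side in none, 138 on the left and 138 on the right. One peak covered both starts in all 8 libraries in 160 of these and in none in 86. Both sides were marked in 8 of 8 libraries in 41 pairs, and 46 pairs had no summit in any library. In 325 pairs the marked side switched between libraries, and 304 of those had a peak over both starts in at least 1 library. A further view of the same behaviour is that 260 pairs were covered by 1 peak in some libraries and split into separate peaks in others. At the level of single starts, 26.1% of divergent and 41.2% of tandem starts had a summit in 8 of 8 libraries, and 22.4% and 18.3% had none in any.

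The strongest pairs were bridged by 1 peak. PIB2 encodes a phosphoinositide-binding activator of the TORC1 kinase complex and STT3 the catalytic subunit of oligosaccharyltransferase, which glycosylates proteins, and their starts lie 300 bp apart (PIB2/STT3). The −log10 q of the peak over this pair was 59.8 and 144 in the synHPRT1R YAC libraries, 138 and 181 in the synHPRT1R integrated ones, 119 and 110 in the synHPRT1 YAC ones and 194 and 129 in the synHPRT1 integrated ones. The summit lay at PIB2 in 8 of 8 libraries and at STT3 in none, although the peak, 1106 to 1586 bp wide, ran past the STT3 start in each. The lowest value was that of synHPRT1R YAC replicate 1, the library with the fewest peaks.

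The same form was seen at MRPL20/PRP16 (176 bp apart), a mitochondrial ribosomal protein gene and the gene of a splicing helicase. There the summit was at MRPL20 in 8 of 8 libraries, with a −log10 q of 84.7 to 171 (median 128). At SSL2/CCT2 (261 bp), genes of a helicase of the transcription factor TFIIH and of a subunit of the cytosolic chaperonin ring, it was at CCT2 (80.3 to 160.0, median 126). DLD1/PAR32 (602 bp), a mitochondrial D-lactate dehydrogenase gene and a gene of ammonium uptake control, had it at PAR32 (34.6 to 180.2, median 124), and SWI3/KRE9 (562 bp), a chromatin remodeller subunit gene and a cell wall glucan gene, at SWI3 (46.7 to 153, median 114). In these 4 pairs, too, 1 peak covered both starts in every library. At MAS2/THR1 (246 bp), genes of a mitochondrial processing protease subunit and of homoserine kinase, a peak of 2400 to 2520 bp covered both starts in 8 of 8 libraries, yet the summit was at MAS2 in 6 and at THR1 in 2.

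Few pairs were resolved into a peak on each side. Separate summits in 8 of 8 libraries were found in 32 pairs, whose median start distance was 680 bp, against 301.5 bp in the 482 pairs bridged in 8 of 8. YHR173C/ENO2 was the closest of the 5 strongest, with starts 174 bp apart: ENO2 encodes the glycolytic enzyme enolase and YHR173C an uncharacterised protein. The ENO2 peak had a −log10 q of 8.84 to 56.1 (median 36.8) with its summit 266 to 381 bp into the gene. The YHR173C peak had a −log10 q of 22.6 to 51.0 (median 28.3) with its summit 238 to 299 bp in, and no library joined them. FMP30/ELP4 (803 bp), genes of a mitochondrial phospholipase and of an Elongator subunit for tRNA modification, had medians of 26.0 and 52.8. TOS1/YSY6 (661 bp), a cell wall protein gene and a gene related to secretion, had medians of 33.8 and 23.9, and LPD1/SMX2 (572 bp), genes of dihydrolipoyl dehydrogenase and the spliceosomal Sm G protein, had 27.8 and 22.2. At LPD1/SMX2 the SMX2 summit moved between libraries, from 179 bp upstream of the start to 718 bp downstream, and in synHPRT1 integrated replicate 2 a peak of 1190 bp also covered both starts. YDR210C-C/GCD6 had 60.6 and 29.4, but YDR210C-C is a retrotransposon gene with near-identical copies, where the placement of reads is uncertain. Where both sides had their own summit, the summits were a median of 925 bp ± 36.4 apart and their heights differed by 0.33 ± 0.04 on the log2 scale. Within a library the log2 heights of both sides were weakly correlated across pairs (mean Pearson r 0.14, n = 99 to 268 pairs per library, from the same library and depth), against 0.21 in tandem neighbours.

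In 85 pairs one gene had a summit in 8 of 8 libraries while no peak ever touched the first 300 bp of the other, at a median start distance of 647 bp. In 9 of them, FMP46/TRK2 and SPL2/ARO9 among them, the median summit lay beyond the end of the short marked gene. RPL15A/YLR030W (700 bp apart) was a clear example: RPL15A, encoding a protein of the large ribosomal subunit, had a peak with a −log10 q of 38.6 to 91.1 (median 74.8) and its summit 169 to 221 bp into the gene, and the uncharacterised YLR030W had none. YCR050C/YCR051W, 299 bp apart, had a peak at YCR051W, an ankyrin-repeat protein gene (−log10 q 37.7 to 86.3, median 60.5), and none at the uncharacterised YCR050C. The unmarked gene lacked a gene name in 18 of the 85 pairs (21.2%), the marked gene in 14 (16.5%), and 10.2% of all divergent genes lack one. NDJ1/YOL103W-A, a meiotic telomere gene beside a retrotransposon gene, was marked on the retrotransposon side only, again with uncertain read placement. These 5 pairs were picked from the 85 by the marked side's −log10 q after their values were seen.

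**Figure D4:**
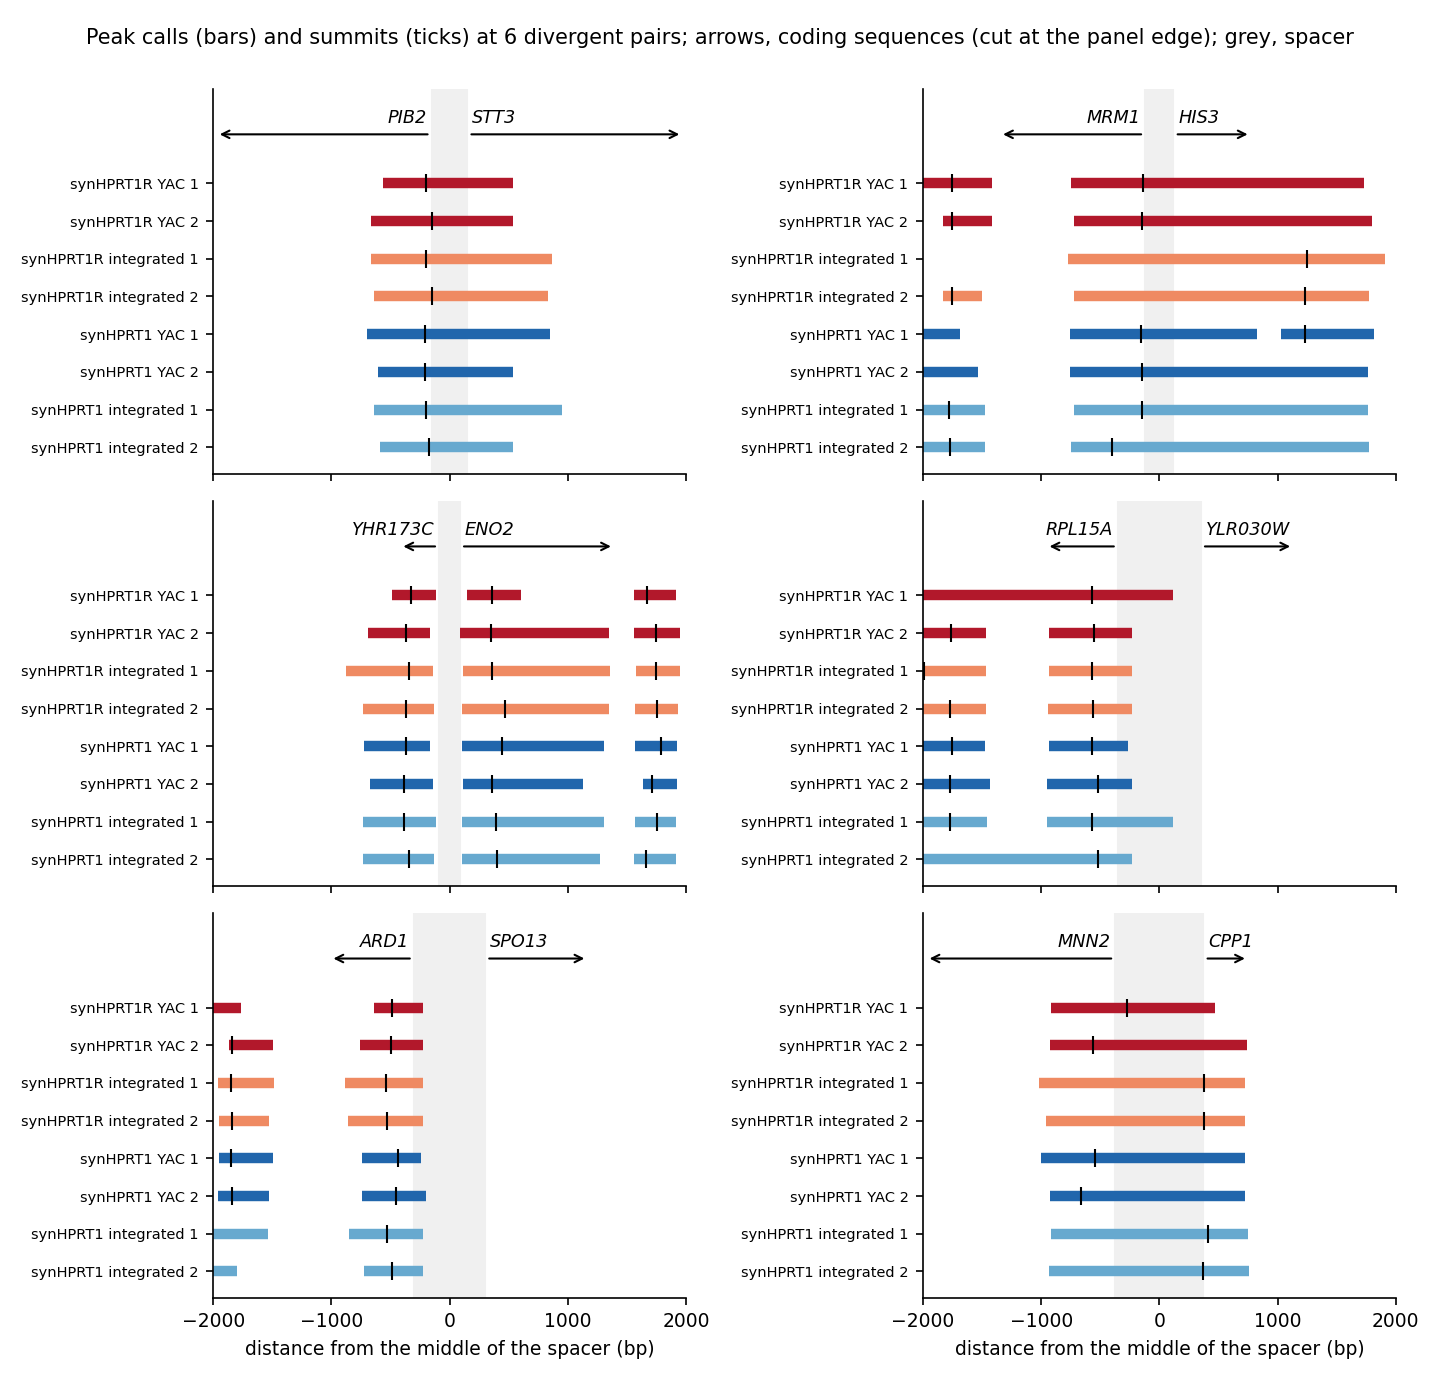
Peak calls in 8 libraries at 6 pairs (bars, coloured by group, with a black tick at the summit) against the distance in bp from the middle of the spacer (grey). Arrows show the coding sequences, cut at the panel edge. PIB2/STT3 and MRM1/HIS3 lie under 1 peak, YHR173C/ENO2 under 2, RPL15A/YLR030W and ARD1/SPO13 carry peaks on the left gene only, and the summit at MNN2/CPP1 changes sides between contexts.

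Of 7 textbook pairs, 3 had no peak at either gene and 4 had one in at least some libraries. GAL10/GAL1 (669 bp), which encode galactose-metabolising enzymes induced by Gal4 and repressed in glucose, had no summit and no bridging peak in any of the 8 libraries. DIT2/DIT1 (899 bp), which make the dityrosine of the spore wall, and MATALPHA2/MATALPHA1 (264 bp), regulators of the alpha mating type that a MATa strain such as BY4741 lacks at this locus, had none either. At MRM1/HIS3 (238 bp), genes of a mitochondrial rRNA methyltransferase and of a histidine biosynthesis enzyme that carries a deletion in BY4741, 1 peak of 1583 to 2677 bp covered both starts in 8 of 8 libraries. Its summit was at MRM1 in 6 libraries, at HIS3 in none, and 1245 and 1230 bp to the right of the middle of the spacer in the 2 synHPRT1R integrated libraries, past the end of HIS3. ADP1/PGK1 (873 bp), a transporter gene and the gene of phosphoglycerate kinase, had a summit at ADP1 in 6 libraries and at PGK1 in 2, and in the remaining 2 libraries a peak of 2326 and 2495 bp covered both starts.

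At the histone pairs, a summit was found in some libraries only. HTB1/HTA1 (818 bp), encoding histones H2B and H2A, had a summit at HTB1 in 3 libraries and at HTA1 in 5. HHT2/HHF2 (677 bp), encoding H3 and H4, had 1 in 2 libraries on each side. The first 300 bp lay under a peak in 7 libraries at HTB1, 6 at HTA1, 8 at HHT2 and 2 at HHF2. Their −log10 q ran from 3.47 to 28.9, against library medians of 18.7 to 37.5 at divergent starts. Only the peaks at HTA1 (28.9) and HHT2 (19.0) in synHPRT1R YAC replicate 1 exceeded the median of their own library, which was 18.7. That HTA1 peak was 1926 bp wide and had its summit 718 bp downstream of the HTA1 start. The 2 summits at HHT2 lay 145 bp upstream and 794 bp downstream of its start. Histone genes have near-identical copies, so the placement of reads there is uncertain, and the pairs HTA2/HTB2 and HHT1/HHF1 lie too close to a centromere to be members.

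The 46 pairs with no summit in any library had a median start distance of 604 bp. In 26 of them the first 300 bp of neither gene was ever under a peak, whereas 16 lay under a peak over both starts in at least 1 library, with its summit outside both windows. The closest were MOR1/KEI1 (12 bp), YGR204C-A/TDA10 (39 bp), PRY3/YJL077W-B (66 bp), YHR139C-A/YHR140W (153 bp) and SPS4/YOR314W (169 bp). KEI1 belongs to inositol phosphorylceramide synthase, PRY3 encodes a cell wall protein and SPS4 is induced in sporulation. The first 300 bp of YJL077W-B were under a peak in 6 of 8 libraries, those of the other 9 genes in none.

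Genes were also grouped by function. Over all 2290 divergent genes, the first 300 bp were under a peak in 8 of 8 libraries for 76.2% and in none for 9.39%, and a summit was present in 8 of 8 libraries at 26.1%. In the cytosolic ribosomal protein list, 51 of 56 divergent genes (91.1%) were covered in 8 of 8 libraries and 0 in none, and 15 (26.8%) had a summit in 8 of 8. In the mitochondrial ribosomal protein list, 30 of 32 (93.8%) were covered in 8 of 8 and 13 (40.6%) had a summit in 8 of 8. In the proteasome list it was 15 of 15 by coverage and 4 (26.7%) by summit. RPS15, a small-subunit protein gene paired with RPP2A, had no summit in any library but lay under a peak in all 8. PRE2 and PUP3, genes of proteasome subunits, were alike in this.

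Of 17 divergent genes of meiosis and sporulation, 15 had no peak over their first 300 bp in any library, and 0 were covered in all 8. The exceptions were SMK1, a sporulation kinase gene covered in 3 libraries, whose start lies 37 bp from that of YPR053C, and CRR1, a spore wall gene covered in 1. By summit, CRR1 and SPS19, of fatty acid breakdown in spores, were marked in 1 library each. The partners were covered in 8 of 8 libraries in 7 of the 17 cases and in none in 7, against 76.2% and 9.39% of all divergent genes. Several of the partners never covered were themselves meiotic (HOP1/SPO22, DIT2/DIT1). Partners with a summit in 8 of 8 libraries were ARD1, of the N-terminal acetyltransferase NatA, next to SPO13, which controls the first meiotic division; VPS30, of autophagy and vacuolar sorting, next to the recombination gene MEI5; SUA5, of tRNA modification, next to the spindle pole gene SPO74; and GTS1 next to the recombination gene MND1. The ARD1 peak had a −log10 q of 12.5 and 25.8 in the synHPRT1R YAC libraries, 35.5 and 43.1 in the synHPRT1R integrated ones, 19.4 and 16.8 in the synHPRT1 YAC ones and 24.5 and 16.3 in the synHPRT1 integrated ones (ARD1/SPO13). The GTS1 peaks were weak, at 3.10 to 7.83.

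**Figure D5:**
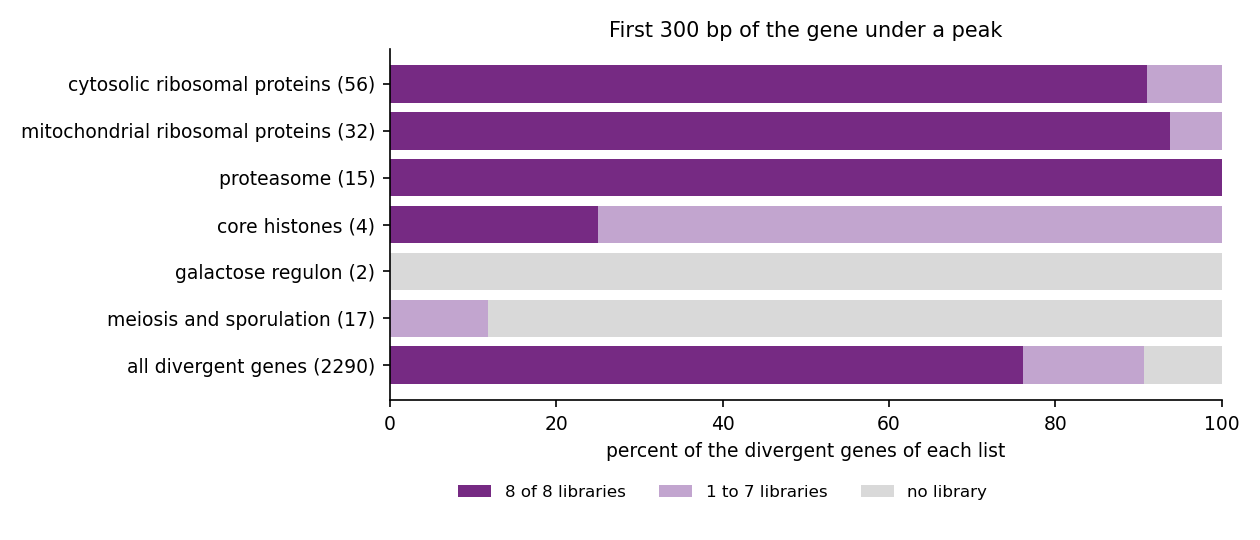
Percent of the divergent genes of each list, with their number in parentheses, whose first 300 bp lay under a peak in 8 of 8 libraries, in 1 to 7 or in none. Of the meiosis and sporulation genes 0 of 17 were covered in all 8 libraries, against 76.2% of all divergent genes.

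The letters upstream of divergent starts were compared in the up to 300 bp before each start, within the spacer. TATAAA, on either strand, was present before 39.3% of divergent and 52.6% of tandem starts, and before 42.0% and 52.8% where the full 300 bp were available (45.9% over both classes). It was found before 30.1% of the 964 starts bridged in 8 of 8 libraries and 54.0% of the 215 divergent starts never under a peak. Where the full 300 bp were available, the shares were 33.9% of 484 and 53.6% of 181 starts. GATGAG was present before 20.8% of divergent and 15.1% of tandem starts (18.0% of both), CGGGTAA before 8.78% and 7.46% (8.12%), and ACACCC before 6.29% and 4.35% (5.33%). The GC content was 36.3% and 34.0%. A match does not show that a factor binds, and both genes of a close pair share the same letters.

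The URS1 core GCCGCC, bound by the meiotic repressor Ume6 within a longer site, was looked for after the meiotic genes had been seen to be unmarked. It was present before 8 of the 17 meiosis and sporulation genes and before 5.50% of all divergent starts (4.51% of both classes), and 1 copy stands before SPO13 in the sequence shown. The Gcn4 motif, present before 7.38% of divergent starts (7.0% of both classes), and 1 TATA box stand in the MRM1/HIS3 spacer, and 3 Gal4 motifs, found before 1.48% of divergent starts (1.21% of both classes), in the GAL10/GAL1 stretch.

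None of the 4 comparisons between groups of libraries passed the test, which with 4 libraries against 4 can reach an exact p of 0.0286. A summit was present at 52.6% ± 4.19 of divergent starts in YAC libraries and 50.9% ± 3.42 in integrated ones (SD, n = 4 each; difference 1.77 points, exact two-sided permutation test over 70 exchanges, p = 0.514, adjusted 0.617). The difference was -3.14 points within synHPRT1R and 6.68 within synHPRT1, each from 2 replicates per group. In synHPRT1R the libraries overlapped, at 46.8% and 53.8% in YAC and 55.0% and 51.9% in integrated ones. Whether the direction depended on the locus was not tested. Both sides were marked in 19.0% ± 5.35 of pairs in YAC and 16.2% ± 4.94 in integrated libraries (difference 2.84 points, exact p = 0.457, adjusted 0.610), with -4.02 points within synHPRT1R and 9.69 within synHPRT1. Between loci, a summit was present at 51.9% ± 3.62 of starts in synHPRT1R and 51.6% ± 4.26 in synHPRT1 libraries (difference 0.218 points, exact p = 0.943, adjusted 0.943), with -4.69 points within YAC and 5.13 within integrated libraries. Both sides were marked in 17.9% ± 4.54 of pairs in synHPRT1R and 17.2% ± 6.13 in synHPRT1 libraries (difference 0.655 points, exact p = 0.886, adjusted 0.943), with -6.20 points within YAC and 7.51 within integrated libraries.

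Single starts separated the contexts in a few cases. Of the divergent starts, 7 (0.306%) had a summit in 4 of 4 YAC and 0 of 4 integrated libraries, against 0.227% of all 5291 starts tested, and 3 (0.131%) had the reverse, against 0.208% of all starts. Both shares lie near the share over all starts. The median −log10 q of divergent peaks was 23.3 ± 3.52 in YAC and 32.4 ± 4.32 in integrated libraries, and that of tandem peaks 15.0 ± 2.38 and 19.9 ± 2.30, and the part of this in the counts was not tested. Leaving out 1 library makes the rule ask for fewer libraries, so a count can only stay or rise. The first count became 13 without synHPRT1R YAC replicate 1, synHPRT1R integrated replicate 1 or synHPRT1 YAC replicate 1, and 15 without synHPRT1R YAC replicate 2. The second became 7 without synHPRT1R YAC replicate 2 or synHPRT1 YAC replicate 2. The share over all starts was not worked out with a library left out, so these counts cannot be set against it. Pairs bridged by 1 peak in 4 of 4 libraries of either context and 0 of 4 of the other numbered 0.

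At some of these starts a shared peak had its summit on another side. At MNN2/CPP1 (744 bp), genes of a Golgi mannosyltransferase and of a plasma membrane protein, 1 peak of 1393 to 1748 bp covered both starts in 8 of 8 libraries, with its summit at MNN2 in the 4 YAC libraries and at CPP1 in the 4 integrated ones. At YBR138C/ATG42 (328 bp), an uncharacterised gene and a vacuolar carboxypeptidase gene, 1 peak also covered both starts in 8 of 8 libraries. At RFC4/TRM10 (260 bp), genes of a clamp loader subunit and of a tRNA methyltransferase, 1 peak covered both starts in 1 of 4 YAC and 4 of 4 integrated libraries, and the other 3 YAC libraries had a peak at each gene. At PBA1/YKE2 (243 bp), genes of proteasome assembly and of prefoldin, 1 peak covered both starts in 2 of 4 YAC and 4 of 4 integrated libraries. The first 300 bp of TRM10, PBA1 and YBR138C were under a peak in all libraries of both contexts. COF1, encoding cofilin, was covered in 3 of 4 libraries of each context.

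Differences of 4 against 0 libraries that held for the extent of the peak as well were found at HDA2, YLR326W, VPS53 and MAS1. At HDA2/MHR1 (565 bp), the gene of a histone deacetylase subunit beside a mitochondrial ribosomal protein gene, HDA2 had a −log10 q of 5.98 and 17.4 in synHPRT1R YAC and 9.82 and 15.3 in synHPRT1 YAC libraries, and no peak in the integrated ones. YLR326W, beside RPL38, had weaker peaks of 4.38 and 6.11 and of 7.79 and 10.1 in the same libraries. In integrated libraries only, VPS53, for retrograde transport to the Golgi, had 13.7 and 9.51 with synHPRT1R and 14.9 and 18.3 with synHPRT1, and MAS1, the partner of MAS2 in the mitochondrial processing protease, had 3.38 and 4.50 with synHPRT1R and 11.8 and 12.3 with synHPRT1. MHR1, RPL38, YJL028W and SHH4, the partners, did not show this separation. COF1 and YLR326W fell outside the rule for named starts and were added after their values were seen.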

How the data were processed

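H3K4me3 peak lists of 8 libraries were used, 2 for each of synHPRT1R YAC, synHPRT1R integrated, synHPRT1 YAC and synHPRT1 integrated; groups follow the titles. For synHPRT1 YAC replicate 2 the source name gives synHPRT1R, and the title and genotype were followed. Per the labels and the study's methods, the authors trimmed reads with Trimmomatic, aligned pairs with Bowtie2 (2.2.9 in the submitters' processing notes) to sacCer3 with the synthetic locus as a contig of its own, and called peaks in each library with MACS2 (2.1.0), keeping duplicates and without a control. The deposited columns hold a fold enrichment over local background (a ratio) and p- and q-values as −log10. With no control, dense regions of any kind can be called, and MACS2 reported 1 summit per peak.

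Coding sequences of RefSeq for sacCer3 gave the gene starts (python 3.11.15, numpy 2.4.6, scipy 1.17.1, pandas 2.3.3). The fragments over each summit were solved from the deposited fold and p-value; the genome background was the background value most peaks shared and was taken as the measure of depth. Read totals, which the study states for each library, were not used here. Differences between divergent and tandem genes were tested within library by exact sign-flip tests over 8 libraries, and groups of 4 by exact permutation. Benjamini-Hochberg adjustment covered 12 tests, with a threshold of 0.05. Scripts were tested on simulated data.

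Alternatives were other windows, stricter peak sets (−log10 q of at least 10, or 3000 peaks), the extent of a peak over the first 300 bp, other distance limits, leaving out libraries and restricted exchanges. The pairs, lists and tests were chosen with earlier results of these data known. The sequence of 1 further spacer is not reported here. Named pairs were textbook pairs, and the 5 strongest or closest of each kind: separate summits, one-sided, without a summit, bridged, and separating contexts.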

Additional observations from a re-analysis of the deposited data

How the results depend on the processing

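Counting a gene as marked by a peak over its first 300 bp instead of a summit reversed all 8 presence comparisons: 9.94 points for starts and 14.9 for both sides between divergent and tandem genes, 24.3 for the partner relation and 14.9 for its difference from tandem genes (adjusted p = 0.0156 each, exact), and -0.939 and -1.03 for YAC minus integrated, and -1.18 and -1.77 for synHPRT1R minus synHPRT1. Under this count, which is in part fixed by peaks over both starts, the one-sided share was 19.3% and the YAC-only starts numbered 4. With that exception, the 8 comparisons between divergent and tandem genes or within pairs kept direction and call under every alternative run, apart from the summit distance in pairs more than 400 bp apart (-5.88 bp, adjusted p = 0.199, exact). Their sizes moved by over 1.5 times in several. For peaks of −log10 q 10 or more the differences were -4.11 points for starts (2 of 8 libraries positive) and -13.0 for both sides, and among 3000 peaks -6.03 for starts. With summits from the start to 500 bp downstream they were -13.7 for both sides, -20.2 for the partner relation and -20.3 for its difference from tandem genes. In pairs more than 400 bp apart the last 2 were -19.4 and -21.2 and the log2 height ratio 0.14, and in pairs at most 500 bp apart the partner relation was -56.8 and the summit distance -38.8 bp.

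None of the 4 comparisons between groups passed under any alternative, and their direction was not stable. The exact permutation tests restricted to exchanges within replicate number or within the other factor cannot go below p = 0.0556. Those 2 alternatives could therefore not pass. For peaks reaching a −log10 q of 10, YAC minus integrated was -1.86 for starts and -0.371 for both sides, and synHPRT1R minus synHPRT1 was -0.568 for starts. The last was -0.611 for summits from the start to 500 bp downstream and -0.448 for starts at most 500 bp apart. Without single libraries it ranged from -1.36 to 1.91 for starts and from -1.48 to 3.14 for both sides.

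The one-sided share moved to 55.7% with summits from the start to 500 bp downstream. In pairs at most 500 bp apart, more than 400 bp apart and with spacers of 300 to 1000 bp it was 78.1%, 59.1% and 64.2%, and the share bridged by 1 peak was 75.5%, 41.7% and 48.5%. YAC-only starts numbered 2 at that limit on −log10 q, 4 among 3000 peaks, and 4, 3 and 4 in the same 3 sets of pairs, in which fewer starts were tested. Integrated-only starts numbered 1 in pairs at most 500 bp apart. Without single libraries the YAC-only starts ranged from 7 to 15 and the integrated-only ones from 3 to 7. With a library left out the rule asks for fewer libraries, so these counts can only stay or rise. The share over all starts was not worked out under any of the alternatives. The cause of the other shifts was not tested.

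Same-numbered libraries did not deviate together over divergent starts (r from -0.0437 to 0.0961 over 6 distinct values, since the 2 libraries of a group mirror each other), and the labels give a number no shared source, so it was not taken as a pairing. With exchanges kept within replicate number (replicate block, smallest p 0.0556), the differences of 1.77, 2.84, 0.218 and 0.655 points had exact p = 0.556, 0.444, 0.944 and 0.944.

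The lists give neither read totals nor signal between peaks, so a start without a peak is one not called at this depth, and the joining of neighbouring marks into 1 peak cannot be undone from them. Without IgG values no antibody background stands beside the counts.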
